A study of Mus musculus with 26 samples.

Results

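Mouse embryonic stem cells (mESCs) kept in 2i+LIF were compared with mESCs in serum+LIF in 6 of the 15 RNA-seq libraries of the series, across the 12575 of 24015 genes that reached at least 1 RPKM (a read count divided by gene length in kilobases and by the library's reads on genes) in at least 2 of the 6. The 2i+LIF group held 2 libraries of wild-type (wt) Stella:GFP mESCs, a line with a GFP reporter of the germ cell gene Stella, in serum-free N2B27 medium with LIF, the MEK inhibitor PD0325901 at 0.8 μM and the GSK3β inhibitor CHIR99021 at 3.3 μM, on dishes coated with poly-ornithine and laminin. The serum+LIF group held 4 libraries with working Mtgr1 and no raised Prdm14: 1 of the wt Stella:GFP cells and 3 of the FH-Mtgr1 lines A3, C1 and C3, each a clone of Mtgr1-/- Stella:GFP cells that carries FLAG-HA-tagged Mtgr1. These cells had spent 5 days without feeders in DMEM with 15% fetal bovine serum and LIF after maintenance in 2i+LIF. LIF and the Stella:GFP reporter were common to all 6 libraries. Serum, basal medium, dish coating and the inhibitors changed together, so that their parts cannot be told apart, and 3 of the 4 serum+LIF libraries also differ from the 2i+LIF libraries in genotype.

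The inhibitors act on separate pathways. PD0325901 blocks MEK, the kinase that activates ERK downstream of FGF receptors, and ERK activity prepares mESCs to leave the naive state. CHIR99021 blocks GSK3, which otherwise marks β-catenin for destruction, and LIF acts through Stat3. Cells in 2i+LIF are known as ground-state cells, with high naive pluripotency factors and little de novo DNA methyltransferase.

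The libraries held 10668572 and 12807778 reads on genes in 2i+LIF and 12729580 to 21218414 in serum+LIF. The mESC markers were present in all 6, with Pou5f1 at 943 and 792 RPKM in 2i+LIF libraries 1 and 2 and 585 to 647 in serum+LIF, and Sox2 at 485 and 306 against 152 to 304. Of the 12 fibroblast markers, 9 did not reach the filter, and their summed level was 4.46 and 4.45 RPKM in 2i+LIF against 20.4 to 30.6 in serum+LIF, where Thy1 made up most of it (1.62 and 2.39 against 15.2 to 24.6). The 2i+LIF libraries stood far apart from each other. The SD over genes of their log2 difference was 0.70, against 0.27 to 0.42 between FH-Mtgr1 lines, 0.49 to 0.59 between these and the wt serum+LIF library, and 0.82 to 1.01 between a 2i+LIF and a serum+LIF library. For 884 genes (7.03% of those tested) 1 of the 2i+LIF libraries lay above and the other below all 4 serum+LIF libraries. Small nuclear and nucleolar RNAs, RNA components of RNases and replication-dependent histone messages, which mostly lack a poly(A) tail, made up 0.0122% of reads in 2i+LIF library 1 and 0.319% in library 2, against 0.0362 to 0.123% in serum+LIF. Of the 140 such genes tested, 55 were on opposite sides of the serum+LIF range, each with library 2 above it. Rnu12, a spliceosomal RNA, was at 0 and 55.2 RPKM in libraries 1 and 2 against 0.84 to 7.25 in serum+LIF. Rmrp, the RNA of RNase MRP, was at 106 and 5609 RPKM, 508 in wt serum+LIF cells and 1996, 439.8 and 1961 in the FH-Mtgr1 lines A3, C1 and C3. At the other end Slc7a3, a cationic amino acid transporter, was at 42.8 and 3.75 RPKM and H1fx, a linker histone, at 77.7 and 11.8, against 18.2 to 37.5 and 28.4 to 45.6 in serum+LIF. The libraries were made from oligo-dT purified RNA, and the part of this step in the difference was not tested. The study's methods name more than 1 sequencing instrument, with different read lengths, and the sources used here do not say which library was run on which or whether the 2i+LIF libraries were made together.

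**Figure D1:**
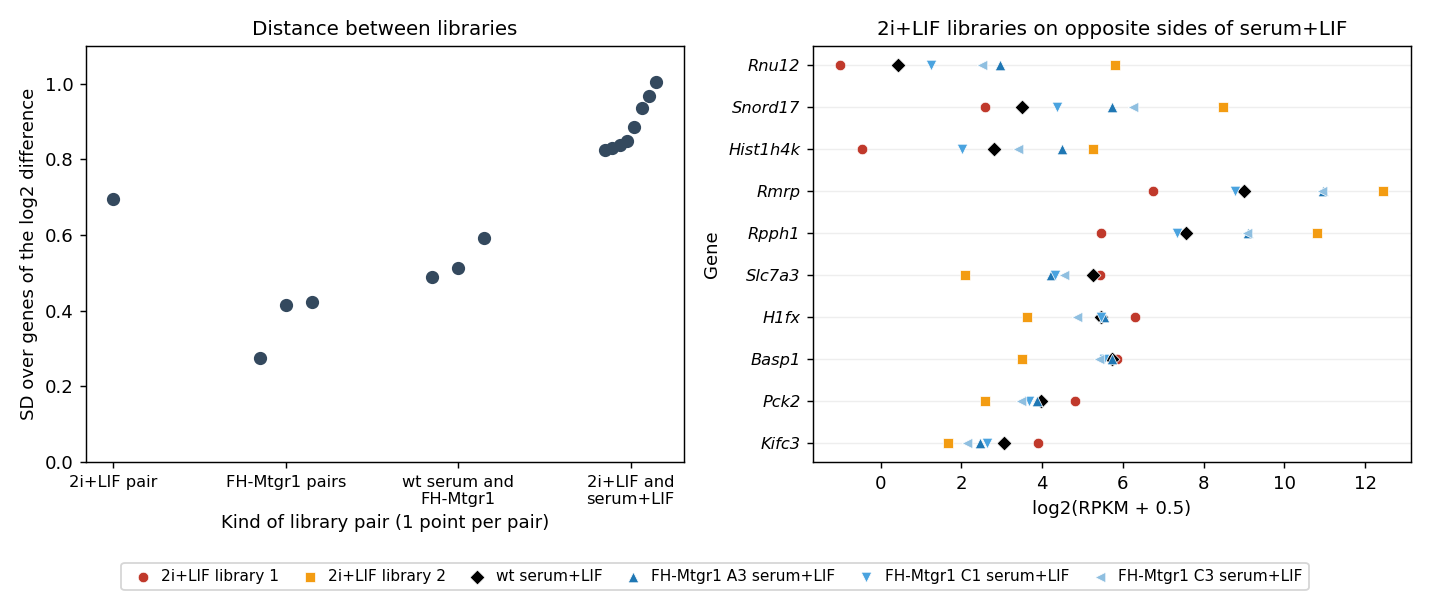
Left, SD over 12575 genes of the difference in log2(RPKM + 0.5) for each of the 15 pairs of libraries, by kind of pair. Right, log2(RPKM + 0.5) in each of the 6 libraries for the 5 genes per direction that differed most between the 2i+LIF libraries while lying on opposite sides of serum+LIF. The 2i+LIF pair sits at 0.70, above all serum+LIF pairs and below all pairs that cross the media.

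On the log2(RPKM + 0.5) scale, 2433 genes differed between 2i+LIF and serum+LIF by limma, with a threshold of 0.05 on the Benjamini-Hochberg adjusted p. Of these, 1212 (9.64% of those tested) were higher and 1221 (9.71%) lower in 2i+LIF, and the median log2 fold change of all genes tested was -0.01. Fold changes on this scale understate those of genes with low RPKM. A tested gene below 1 RPKM in all libraries of 1 medium reached the filter only through the other medium. The filter partly fixed the direction of such genes, and so the shares of lists that hold them. A change was taken to hold in both libraries where the gene also passed, in the same direction, when each 2i+LIF library was set alone against the 4 serum+LIF libraries. That was so for 912 genes, 399 higher (3.17%) and 513 lower (4.08%). Taken alone, library 1 gave 2660 genes (1491 higher, 1169 lower) and library 2 gave 1349 (520 higher, 829 lower), and 7 genes passed with both in opposite directions. Such a fit assumes that the single library varies like the serum+LIF libraries. Without any test, both 2i+LIF libraries lay above all 4 serum+LIF libraries for 2530 genes (20.1%) and below them for 2857 (22.7%).

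The number of genes differed between sets of serum+LIF libraries used as the reference, which differ in genotype and in size. Against the wt serum+LIF library alone 861 genes (6.85%) passed, against the FH-Mtgr1 libraries alone 2588 (20.6%), and of the 912 genes that held, 559 (61.3%) also passed against the wt library alone. Of the genes named below as held, Lefty2, Gdf3, Gsr, Vegfa, Dsp, Cdkn1c, Hand1, Tex101, Sox1, Otx1, Uhrf1, Uhrf2, Myl9, Zyx, H19, Igf2, Tdrd1, Phlda1, Fosl2 and Ajuba did not pass against that library alone. The count of genes that held was 328 without line A3, 336 without line C1 and 1805 without the wt serum+LIF library, and the count for the whole comparison was 1346, 1335 and 2581.

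**Figure D2:**
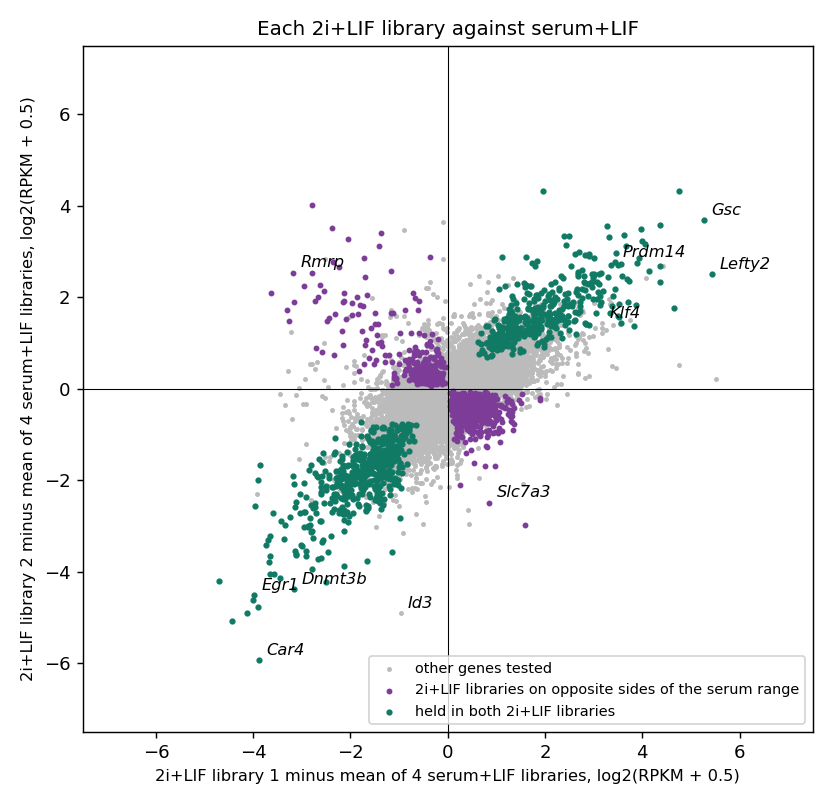
Difference in log2(RPKM + 0.5) from the mean of the 4 serum+LIF libraries for 2i+LIF library 1 (horizontal) and library 2 (vertical), 1 point per gene tested. The 912 genes that held in both libraries (green) lie in the lower left and upper right, and the 884 genes on opposite sides of the serum+LIF range (purple) in the other corners; both axes share the serum+LIF libraries.

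The genes with the largest differences that held, at a mean of at least 5 RPKM, included secreted regulators of Nodal and Wnt signalling and targets of ERK and BMP. Tcl1, a coactivator of the kinase Akt (NCBIM37, or mm9, chromosome 12, 106454967 to 106460947), was at 119 and 85.8 RPKM in 2i+LIF, 8.22 in wt serum+LIF cells and 7.25, 6.29 and 6.798 in the FH-Mtgr1 lines, a log2 fold change of 3.74 (SE 0.20, limma adjusted p = 0.000107). Gsc (goosecoid), a homeobox factor of the gastrula organizer, was at 28.3 and 9.11 RPKM in 2i+LIF and at 0.161 to 0.335 in serum+LIF, a log2 fold change of 4.48 (SE 0.40, limma adjusted p = 0.000514). Both genes were several-fold above the whole serum+LIF range in each 2i+LIF library. Lefty2, a secreted inhibitor of Nodal, was at 276 and 35.5 RPKM against 3.703 to 7.57. Its log2 fold change was 5.44 in library 1 and 2.50 in library 2, so that the direction was shared and the size was not. Its paralog Lefty1 is closely similar, and reads that fit both cannot be assigned with certainty.

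Prmt8, an arginine methyltransferase, rose most of these, a log2 fold change of 4.54 (SE 0.48, limma adjusted p = 0.000915), with 23.6 and 17.5 RPKM in 2i+LIF against 1.59 in the wt and 0.117 to 0.2604 in the FH-Mtgr1 serum+LIF libraries. Khdc3, a component of the maternal complex of oocytes, was at 131 and 76.6 RPKM against 3.27 to 12.2. The other genes of this group were Ppp2r2c, a regulatory subunit of protein phosphatase 2A, Myof (myoferlin, a membrane repair protein), Nid1 (nidogen, a basement membrane linker) and Sfrp1, a secreted Wnt antagonist. Their log2 fold changes were 3.61, 3.52, 3.49 and 3.32. All 9 genes named here were chosen with both 2i+LIF libraries above the serum+LIF range. For Nid1 the values were 128 and 107 RPKM against 6.73 to 19.9.

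Among genes lower in 2i+LIF, Gja1 (connexin 43, chromosome 10, 56097106 to 56110225 in NCBIM37) was at 8.39 and 5.28 RPKM against 131 in wt serum+LIF cells and 136, 143 and 159 in the FH-Mtgr1 lines, a log2 fold change of -4.31 (SE 0.21, limma adjusted p = 0.000107). Both 2i+LIF libraries were far below the narrow serum+LIF range. Car4, a membrane-bound carbonic anhydrase, fell most of these, by a log2 fold change of -4.91 (SE 0.59, limma adjusted p = 0.00143), with 2.596 and 0.2402 RPKM in 2i+LIF, 20.8 in wt serum+LIF cells and 56.7 to 59.6 in the FH-Mtgr1 lines. H19, an imprinted noncoding RNA, fell from 43.7 RPKM in wt serum+LIF cells and 221, 268 and 555 in the FH-Mtgr1 lines to 10.7 and 6.001. The spread of H19 among serum+LIF libraries was large, and against the wt library alone its log2 fold change was -2.37 (limma adjusted p = 0.0543). The others were 2610528J11Rik, Plac8, the kinesin Kif1a, the tetraspanin Tspan7, Tmem54, Egr1 and Id1. Kif1a was at 0.692 and 0.151 RPKM against 11.4 to 25.8, and Tspan7 at 0.687 and 0.396 against 10.6 to 20.1. All 10 were chosen with both 2i+LIF libraries below every serum+LIF library.

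**Figure D3:**
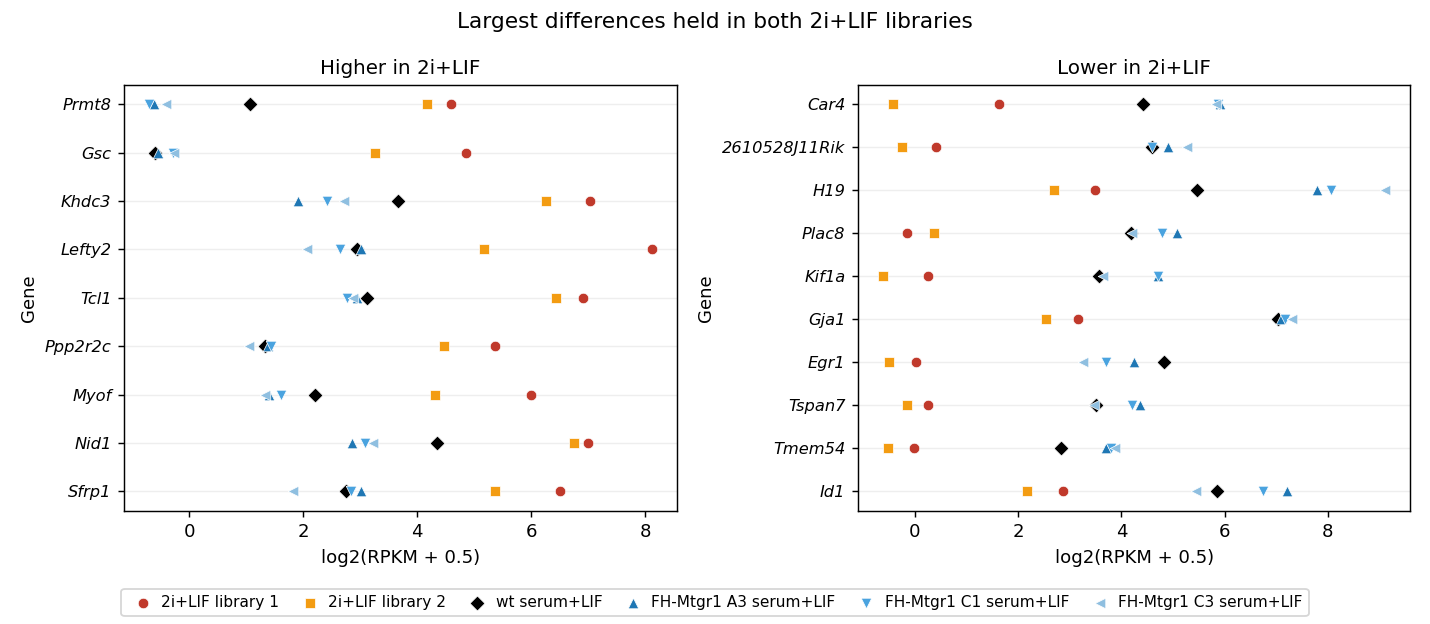
log2(RPKM + 0.5) in each of the 6 libraries for 9 genes higher and 10 lower with the largest log2 fold changes among those that held in both 2i+LIF libraries at a mean of at least 5 RPKM. The circle and square of 2i+LIF lie on 1 side of the 4 serum+LIF symbols in every row, as the choice of genes required. The gap between circle and square is widest for Lefty2 and Car4.

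Many genes of the ERK target list, which the kinase downstream of MEK induces, were lower in 2i+LIF. Of 25 tested, 12 were lower and none higher, against 9.71% lower among all genes tested, 8 of the 12 held in both libraries, and the list's median log2 fold change was -0.84. Egr1, an immediate early transcription factor, was at 0.519 and 0.203 RPKM in 2i+LIF, 27.7 in wt serum+LIF cells and 18.3, 12.5 and 9.08 in the FH-Mtgr1 lines, a 18.96-fold difference on the tested scale with a log2 fold change of -4.24 (SE 0.40, limma adjusted p = 0.000592). Both 2i+LIF libraries were below 1 RPKM and all serum+LIF libraries far above it. Feedback inhibitors that ERK induces were lower too. Dusp6, an ERK phosphatase, was at 6.602 and 1.59 RPKM against 28.1 to 37.2, a log2 fold change of -3.01 (SE 0.41, limma adjusted p = 0.00244). Dusp4, another such phosphatase, was at 3.78 and 6.18 RPKM against 29.1 to 42.8, and Spry4, a Sprouty inhibitor of receptor tyrosine kinase signalling, at 1.65 and 0.527 against 35.2 in wt and 8.13 to 10.5 in FH-Mtgr1 cells. Spry1, Jun, Phlda1 and Fosl2 also held, with log2 fold changes of -1.48, -2.69, -2.20 and -1.55. Against the wt library alone 7 of the 25 were lower and none higher, and against the FH-Mtgr1 libraries alone 11 and 2.

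The fall did not cover the whole list. Etv5, an FGF-regulated ETS factor, was at 109 and 101 RPKM against 111 to 166, a log2 fold change of -0.24 (limma adjusted p = 0.466), Ccnd1 (cyclin D1) was at 29.7 and 28.3 against 15.2 to 26.5, and Fos at 1.12 and 3.28 against 2.07 to 4.204. Myc was lower, -2.25 (SE 0.48, limma adjusted p = 0.0136), but its single-library fit for 2i+LIF library 1, at 1.05 RPKM, had an adjusted p of 0.0645 in limma. The genes for the inhibited kinases themselves did not pass. Map2k1 and Map2k2, which encode MEK, had log2 fold changes of 0.60 (limma adjusted p = 0.0501) and 0.64 (limma adjusted p = 0.159), and Gsk3a and Gsk3b 0.35 (limma adjusted p = 0.172) and 0.41 (limma adjusted p = 0.241). Map2k1 passed in 8 of the 18 alternative fits, with log2 fold changes of 0.59 to 0.77.

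Genes of the DNA methylation list were called in both directions. The de novo methyltransferases Dnmt3a and Dnmt3b, their cofactor Dnmt3l and the Uhrf1 paralog Uhrf2 were lower in 2i+LIF and held in both libraries, while Uhrf1, which guides the maintenance enzyme to replicated DNA, was higher and held. Of the 13 genes tested, Dnmt1 and Uhrf1 were higher, 4 lower and 7 did not pass. Among all genes tested 9.64% were higher and 9.71% lower. Dnmt3b (chromosome 2, 153475186 to 153513466 in NCBIM37) was at 11.7 and 4.71 RPKM in 2i+LIF, 149.5 in wt serum+LIF cells and 116, 107 and 74.8 in the FH-Mtgr1 lines, a 13.7-fold difference with a log2 fold change of -3.77 (SE 0.36, limma adjusted p = 0.000607). Dnmt3a was at 7.397 and 6.88 RPKM against 18.6 to 28.97, and Dnmt3l at 49.5 and 40.2 against 88.04 to 152. Uhrf1 was at 262 and 275 RPKM against 118 to 158, a log2 fold change of 1.04 (SE 0.19, limma adjusted p = 0.00793). The groups did not overlap for any of these genes, as for 2432 of the 2433 genes past the threshold. Uhrf1 and Uhrf2 did not pass against the wt serum+LIF library alone. Dnmt1, the maintenance enzyme, was at 81.6 and 101 RPKM against 34.7 to 71.5; it passed in the whole comparison, 0.95 (limma adjusted p = 0.0422), and in neither single-library fit. Tet1 and Tet2, which oxidize methylcytosine, were at 36.6 and 37.6 and 24.5 and 8.998 RPKM, within the serum+LIF ranges of 19 to 59.8 and 6.29 to 17.8 for all but Tet2 in library 1.

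The formative and primed epiblast list, genes that mark cells after the naive state, had 13 of 21 tested genes lower, 10 of which held, and none higher, against 9.71% lower among all genes tested, with a median log2 fold change of -1.53. Otx2, a transcription factor of the postimplantation epiblast, was at 19.99 and 15.05 RPKM against 64.2 to 70.97, a log2 fold change of -1.91 (SE 0.18, limma adjusted p = 0.00057). Pou3f1 (Oct6) was at 7.01 and 3.29 RPKM in 2i+LIF, 33.3 in wt and 20.2 to 21.3 in FH-Mtgr1 serum+LIF cells. Fgf5 was low everywhere, at 0.0749 and 0.0312 RPKM against 0.782 to 1.56. Grhl2 and Sox11, transcription factors of epithelium and of neural progenitors, fell from 7.58 to 14.4 and 11.3 to 12.2 RPKM in serum+LIF to 0.569 and 0.631 and to 0.7098 and 1.05. Lef1, Zic2, Foxd3 and Fgf15 were among the 8 that did not pass. The list shares Dnmt3a, Dnmt3b and Dnmt3l with the methylation list.

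**Figure D4:**
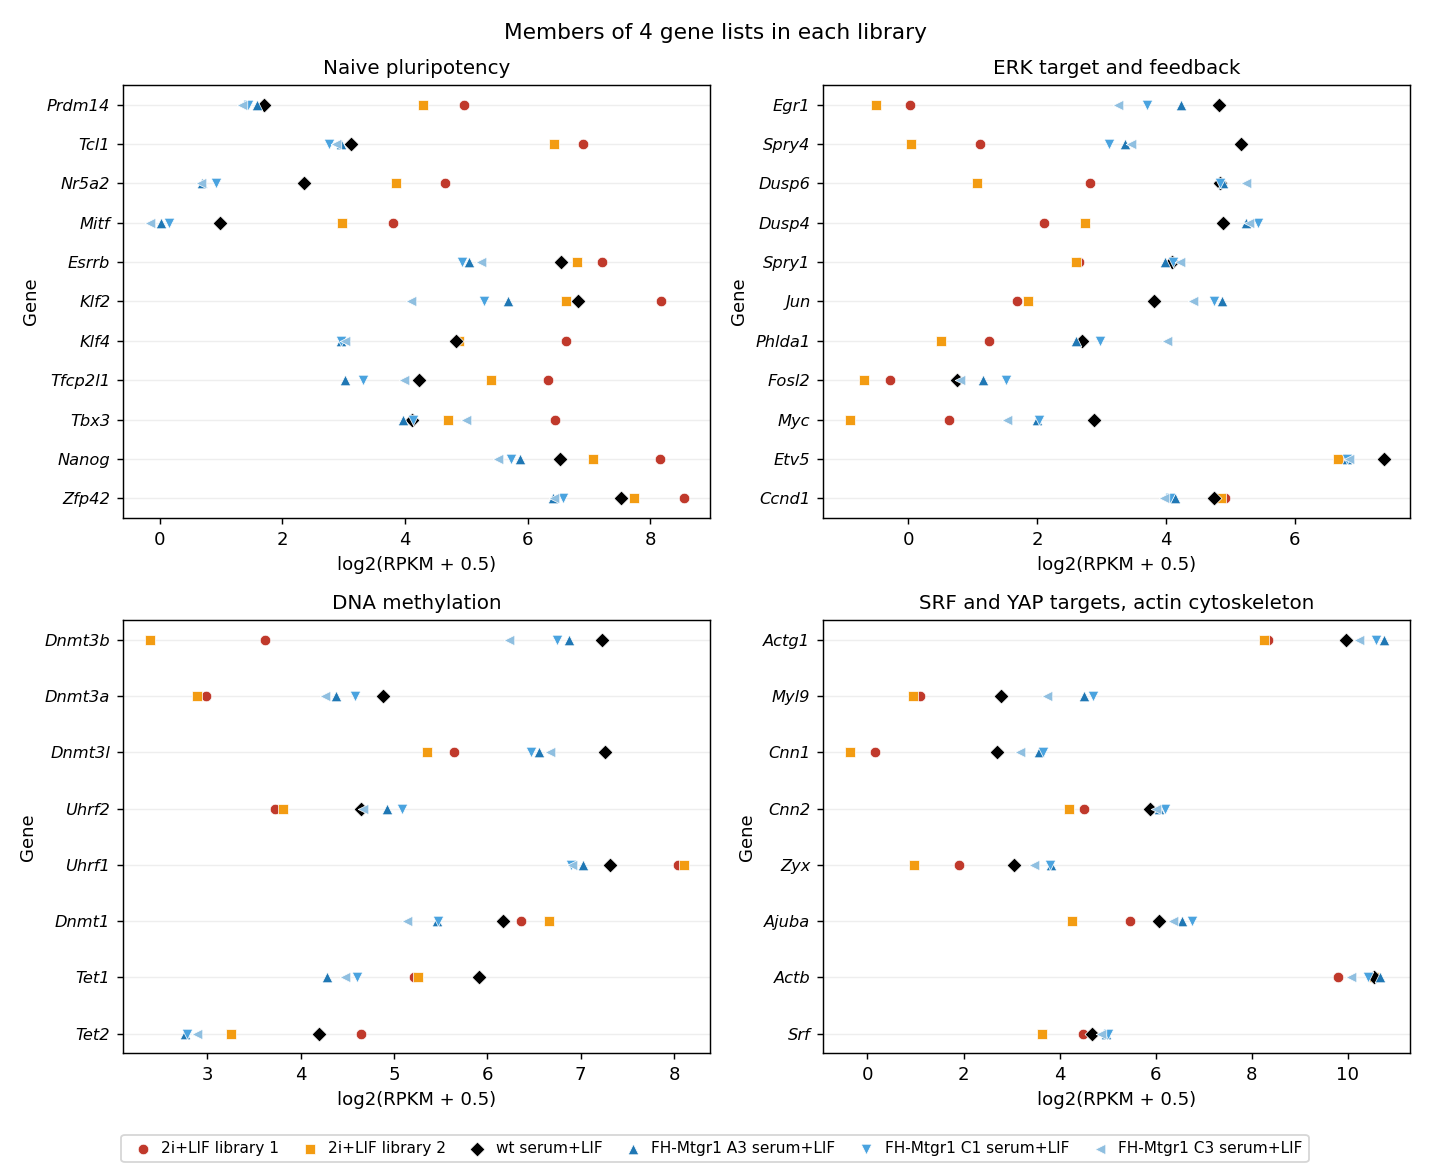
log2(RPKM + 0.5) in each of the 6 libraries for members of the naive pluripotency, ERK, DNA methylation and actin cytoskeleton lists. For Prdm14 and Tcl1 the 4 serum+LIF symbols sit together far to the left of 2i+LIF, whereas for Esrrb, Klf4 and Zfp42 the wt serum+LIF library (diamond) lies near 2i+LIF library 2.

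Of the 20 naive pluripotency genes, all tested, 11 were higher in 2i+LIF and none lower, against 9.64% higher among all genes tested, with a median log2 fold change of 1.54. The 5 that held in both libraries were Prdm14, Tcl1, Nr5a2, Mitf and Fbxo15. Prdm14, a repressor of differentiation genes that binds Mtgr1 (chromosome 1, 13103538 to 13117244 in NCBIM37), was at 30.8 and 19.1 RPKM in 2i+LIF, 2.77 in wt serum+LIF cells and 2.52, 2.22 and 2.03 in the FH-Mtgr1 lines, an 8.64-fold difference with a log2 fold change of 3.11 (SE 0.25, limma adjusted p = 0.0004). Nr5a2, a nuclear receptor that can drive Pou5f1, was at 24.7 and 14.03 RPKM against 4.62 in wt and 1.1 to 1.38 in FH-Mtgr1 serum+LIF cells. Fbxo15, a target of Oct4 and Sox2, was at 162 and 119.9 RPKM against 38.3 to 49.4.

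Esrrb, Klf4, Klf5, Tfcp2l1, Nanog and Zfp42 (Rex1) passed in the whole comparison without holding in both libraries. Nanog was at 285 and 133 RPKM in 2i+LIF, 91.2 in wt serum+LIF cells and 57.9, 52.4 and 45.1 in the FH-Mtgr1 lines, a log2 fold change of 1.70 (SE 0.35, limma adjusted p = 0.0122). Esrrb, an orphan nuclear receptor, was at 147 and 111 RPKM against 92.2 in wt and 30.1 to 37.1 in FH-Mtgr1 cells, and Klf4 at 97.6 and 28.9 against 28 and 7.24 to 7.61. For Klf4 the wt serum+LIF library reached almost the level of 2i+LIF library 2, and only library 1 stood clear of it. Against the wt library alone the log2 fold changes were 0.47 (limma adjusted p = 0.272) for Esrrb, 0.91 (limma adjusted p = 0.374) for Klf4 and 1.09 (limma adjusted p = 0.156) for Nanog, and against the FH-Mtgr1 libraries alone 1.93 (limma adjusted p = 0.00186), 2.77 (limma adjusted p = 0.00891) and 1.91 (limma adjusted p = 0.0092). The wt library was the highest of the 4 serum+LIF libraries for 18 of the 20 naive genes, compared with 45.4% of all genes tested. Library 1 was above library 2 for 19 of the 20, compared with 59.7% of all genes tested, and the list's median log2 fold change was 2.00 in library 1 and 1.07 in library 2. Klf2 and Tbx3 did not pass, at 288 and 97.7 and 86.5 and 25.5 RPKM against 16.6 to 112 and 15.2 to 31.2 in serum+LIF, and neither did Dppa3, Gbx2 and Fgf4.

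General pluripotency genes split. Pou5f1 and Sox2, the core factors, had log2 fold changes of 0.49 (limma adjusted p = 0.147) and 0.99 (limma adjusted p = 0.0599), with both 2i+LIF libraries at or above the serum+LIF range. Of the 14 tested, Gdf3 was higher and Lin28a, Dppa4 and Utf1 were lower, against 9.64% and 9.71% of all genes tested. Lin28a, which blocks the maturation of let-7 microRNAs, was at 23.6 and 27.3 RPKM in 2i+LIF, 120.2 in wt serum+LIF cells and 115, 129 and 101 in the FH-Mtgr1 lines, a log2 fold change of -2.16 (SE 0.18, limma adjusted p = 0.0004). Dppa4 was at 42.3 and 28.4 RPKM against 92.02 to 108. Both held, and the serum+LIF libraries were close to each other for both genes. Among the Prdm14 and ETO family genes Prdm14 alone passed, of 9 tested, against 19.3% of all genes tested. Cbfa2t2, which encodes Mtgr1, was at 25.7 and 21.4 RPKM in 2i+LIF, 40.7 in wt serum+LIF cells and 27.96, 26.7 and 25.5 in the FH-Mtgr1 lines, a log2 fold change of -0.33 (limma adjusted p = 0.329).

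Wnt and β-catenin targets changed in both directions. Of 14 tested, 3 were higher and 4 lower, against 9.64% and 9.71% of all genes tested, and the median log2 fold change was -0.13. Axin2, a feedback scaffold of the pathway, was at 3.06 and 2.22 RPKM in 2i+LIF against 4.56 to 7.62, a log2 fold change of -1.08 (SE 0.26, limma adjusted p = 0.0217). Notum, which inactivates Wnt ligands, and the homeobox gene Cdx1 were higher at 13.4 and 3.09 and 4.23 and 1.695 RPKM, against 0.623 to 1.404 and 0.144 to 0.673, but did not pass in library 2 (limma adjusted p = 0.0594 and 0.0878). Sfrp1, at 90.5 and 40.6 RPKM against 3.04 to 7.63, and Rnf43, at 0.0435 and 0.127 against 1.74 to 2.39, were the members that held. Sp5, T, Lgr5 and Dkk1 did not reach the filter, and Lef1 had a log2 fold change of -0.11 (limma adjusted p = 0.866).

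Of the 12 tested genes of BMP signalling, Id1 and Id2, inhibitors of helix-loop-helix factors and classical BMP targets, were lower and held. Among all genes tested 4.08% were lower and held. Id1 was at 6.82 and 4.01 RPKM in 2i+LIF, 57.2 in wt serum+LIF cells and 147, 107 and 43.1 in the FH-Mtgr1 lines, a log2 fold change of -3.79 (SE 0.46, limma adjusted p = 0.00149), and Id2 at 2.06 and 1.41 against 15.6 to 35.9. Id3 was at 11.02 and 0.246 RPKM against 13.8 to 37.05: library 2 was below 1 RPKM while library 1 lay just under the serum+LIF range, and the gene did not pass, -2.94 (limma adjusted p = 0.0505). It passed in 5 alternative fits that kept both 2i+LIF libraries. Id4 was higher, 1.68 (limma adjusted p = 0.036), at 16.5 and 3.998 RPKM against 1.83 to 2.98. In the Nodal and activin list 4 of 11 tested genes were higher, against 9.64% of all genes tested, and none lower, among them Lefty2 and Gdf3, which held, and Lefty1, which did not. Against the wt library alone 1 of the 11 was higher and 1 lower. Gdf3, a TGFβ-family ligand, was at 64.9 and 32.5 RPKM against 14.9 to 18.3. Nodal itself was at 51.7 and 21.96 RPKM, 1 library above and 1 below the serum+LIF range of 24.1 to 26.8. Of 14 LIF and Stat3 genes none held, and 4 were higher and 2 lower, against 9.64% and 9.71% of all genes tested. Stat3 was at 25.3 and 26.5 RPKM against 18.8 to 24.9, and its feedback inhibitor Socs3 at 45.2 and 42.8 against 27.8 to 55.04.

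Genes of the actin cytoskeleton that respond to SRF and YAP were lower in 2i+LIF for 9 of 28 tested and higher for Actn1 and Cnn3, against 9.71% and 9.64% of all genes tested, with a median log2 fold change of -0.92. The 6 that held, all lower, were Actg1, Cnn1, Cnn2, Myl9, Zyx and Ajuba. Actg1, cytoplasmic γ-actin, was at 324 and 306 RPKM in 2i+LIF, 999 in wt serum+LIF cells and 1724, 1537 and 1198 in the FH-Mtgr1 lines, a 4.23-fold difference with a log2 fold change of -2.08 (SE 0.28, limma adjusted p = 0.0023). Actb, cytoplasmic β-actin, was at 886 and 1498 RPKM against 1070.2 to 1628, -0.25 (limma adjusted p = 0.614). Processed pseudogenes of both actins make the split of their reads uncertain. Cnn1, a calponin of contractile cells, was at 0.613 and 0.275 RPKM against 5.99 to 12.1, Myl9, a myosin light chain, at 1.64 and 1.44 against 6.399 to 25.4, and Zyx (zyxin, a focal adhesion protein) at 3.23 and 1.45 against 7.796 to 13.6. The wt serum+LIF library was the lowest of the 4 for 20 of the 28 genes, compared with 25.1% of all genes tested. Against it alone 3 of the 28 were lower and against the FH-Mtgr1 libraries alone 16, and Myl9 and Zyx did not pass against the wt library alone (limma adjusted p = 0.0511 and 0.0631). Srf was at 22.1 and 11.8 RPKM against 25.2 to 31.9, -0.82 (limma adjusted p = 0.0506).

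The promoters of the held actin genes are shown because they were lower together and because SRF binds a known sequence, the CArG box (CC, 6 bases of A or T, GG). The box was sought on both strands of the 250 bases before the RefSeq start site in GRCm38.p6, for which 9350 of the 12575 genes tested had an entry. It was found for 3 of the 6 held genes (50%), for 6 of the 22 list members with an entry (27.3%) and for 129 (1.38%) of the 9350 genes. Among all genes that held it was found for 2.96% of those lower and 1.37% of those higher with an entry. None of the 4 held ERK targets with an entry had it. The 3 promoters follow 5′ to 3′ on the strand of the gene with the box in capitals, Actg1 at chr11:120348496-120348745 (minus strand), Cnn2 at chr10:79988350-79988599 (plus strand) and Myl9 at chr2:156775214-156775463 (plus strand), and the box starts 90, 56 and 161 bases before the start site.
Actg1: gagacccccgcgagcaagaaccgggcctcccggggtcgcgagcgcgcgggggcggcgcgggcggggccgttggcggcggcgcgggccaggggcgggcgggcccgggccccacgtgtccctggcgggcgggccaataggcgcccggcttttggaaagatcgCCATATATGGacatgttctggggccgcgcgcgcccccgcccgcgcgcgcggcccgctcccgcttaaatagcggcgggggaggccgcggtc
Cnn2: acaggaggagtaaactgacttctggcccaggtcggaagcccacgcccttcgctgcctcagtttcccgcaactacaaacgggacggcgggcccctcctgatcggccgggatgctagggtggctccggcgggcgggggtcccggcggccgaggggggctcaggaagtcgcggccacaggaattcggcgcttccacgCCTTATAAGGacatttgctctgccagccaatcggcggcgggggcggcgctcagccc
Myl9: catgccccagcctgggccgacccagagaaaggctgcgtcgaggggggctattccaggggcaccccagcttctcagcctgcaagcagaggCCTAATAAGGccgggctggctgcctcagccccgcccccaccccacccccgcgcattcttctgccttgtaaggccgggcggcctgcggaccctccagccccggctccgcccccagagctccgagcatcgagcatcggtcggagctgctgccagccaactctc
A match describes these letters only and does not show binding. The actin list was made of known SRF and YAP targets, so a share of the box above that of all genes was built into its choice. The list's share does not bear on the difference between the media. The same windows held the TCF/LEF core CTTTGAT or CTTTGAA in 5 of 13 Wnt list promoters against 6.15% of the genes tested. Of the 5, Dkk1, Sp5, Sp8 and T did not reach the filter and Tnfrsf19 did not pass. The 1 held Wnt gene with an entry had no such core. The sterol element core CACCCCAC was in 2 of 18 cholesterol list promoters against 3.39%. These were Acat2, which did not hold, and Hmgcs1, listed at 0. Both lists were likewise chosen by pathway.

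Epithelial and mesenchymal genes moved in both directions. Of 17 tested, 9 were lower and 2 higher, against 9.71% and 9.64% of all genes tested, and against the wt serum+LIF library alone 4 were lower. Epcam, an epithelial adhesion molecule, was at 31.4 and 52.4 RPKM in 2i+LIF, 146 in wt serum+LIF cells and 236, 225 and 217 in the FH-Mtgr1 lines, a log2 fold change of -2.30 (SE 0.27, limma adjusted p = 0.00139). Esrp1, a splicing regulator of epithelial cells, was at 2.01 and 4.15 RPKM against 26.8 to 34.3, and the tight junction gene Cldn6 at 17.5 and 29.4 against 94.2 to 116.5. Zeb1, a repressor of epithelial genes, was higher at 4.38 and 2.35 RPKM against 0.187 to 0.293, and so was the desmosomal gene Dsp at 15.7 and 14.4 against 2.28 to 4.64. All of these held, and Zeb1 reached the filter only through 2i+LIF. Cdh1 (E-cadherin) was at 173 and 202 RPKM against 102 to 211, 0.27 (limma adjusted p = 0.546). In the extracellular matrix list 6 of 23 tested genes were higher and 3 lower, against 9.64% and 9.71% of all genes tested. Nid1, Fn1, Timp1 and Sparc were higher and held, and Lamb1 was lower and held. Fn1 (fibronectin) was at 299 and 246 RPKM against 113 in wt and 44.05 to 56.5 in FH-Mtgr1 serum+LIF cells, and Lamb1, the laminin β1 chain, at 13.4 and 12.9 against 54.7 to 77.8.

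Germline genes of genome defence and meiosis were more often called lower than higher. Of 23 tested, 9 were lower, 7 of which held, and 1 was higher, against 9.71%, 4.08% and 9.64% of all genes tested. Mael, which takes part in transposon silencing by piRNAs (chromosome 1, 168131516 to 168168875 in NCBIM37), was at 3.52 and 3.23 RPKM in 2i+LIF, 61.7 in wt serum+LIF cells and 47.5, 42.1 and 55.3 in the FH-Mtgr1 lines, a log2 fold change of -3.74 (SE 0.20, limma adjusted p = 0.000107). Sycp3, of the synaptonemal complex, was at 4.09 and 4.18 RPKM against 14.8 to 28.7, and Ddx4 (Vasa) at 2.11 and 2.905 against 7.33 to 9.73. Taf7l, Tex101, Slc25a31 and Tdrd1 were the others that held. These reached the filter only through serum+LIF, so the filter partly fixed the share of the list that was lower. Dazl, an RNA-binding protein of germ cells, went the other way, at 16.3 and 11.6 RPKM against 1.51 to 2.25, a log2 fold change of 2.57 (SE 0.24, limma adjusted p = 0.000591).

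Of 22 imprinted genes tested, 10 were lower and 1 higher, 8 and 1 of which held, against 9.71% lower and 4.08% lower and held among all genes tested, and the median log2 fold change was -0.55. Peg10, a retrotransposon-derived gene of the placenta, was at 12.2 and 3.33 RPKM in 2i+LIF, 119 in wt serum+LIF cells and 65, 64.5 and 51.8 in the FH-Mtgr1 lines, a log2 fold change of -3.36 (SE 0.47, limma adjusted p = 0.00253). Cdkn1c, a cyclin-dependent kinase inhibitor, was at 1.93 and 5.35 RPKM against 13.4 to 25.7, and Igf2, the growth factor gene next to H19, at 0.664 and 0.424 against 2.38 to 8.36. H19 and Igf2, which are expressed from opposite parental alleles, were both lower, though neither passed against the wt serum+LIF library alone, where 5 of the 22 were lower. Plagl1, a zinc finger factor, was higher at 20.9 and 4.72 RPKM against 0.478 to 0.6201, with log2 fold changes of 4.36 in library 1 and 2.33 in library 2. It reached the filter only through 2i+LIF. Meg3, Peg3 and Grb10 were among the 11 that did not pass, with Meg3 at 43 and 36.1 RPKM against 25.9 to 41.5.

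Many markers of extraembryonic and germ layer lineages named below were at a few RPKM or less in both media, but several endoderm genes were far above that. Among 21 primitive and extraembryonic endoderm genes tested, 10 were lower and 2 higher, against 9.71% and 9.64% of all genes tested. The 2 higher were Sparc and Lamc1. Sparc held, at 209 and 243 RPKM in 2i+LIF against 69.8 to 92 in serum+LIF. Lamc1 did not hold, at 109 and 61.3 RPKM against 26.5 to 52.5 (limma adjusted p = 0.0352). Among those lower, Krt18 was at 28.7 RPKM in both 2i+LIF libraries against 52.2 to 231, and Lamb1 and H19 are given above. Dab2 and Cubn, endocytic adaptor and receptor genes, were at 0.405 and 0.287 and 0.0745 and 0.0276 RPKM against 1.74 to 5.34 and 1.28 to 2.73, while Gata4 and Gata6, the factors that specify this lineage, were at 3.73 and 3.31 and 0.998 and 1.05 against 2.67 to 5.61 and 1.56 to 4.28 and did not pass. The wt serum+LIF library was the lowest of the 4 for 15 of the 21, compared with 25.1% of all genes tested, and 3 were lower against it alone and 12 against the FH-Mtgr1 libraries alone. Hand1 and Peg10 were the trophoblast genes that were lower, of 10 tested, against 9.71% of all genes tested. Of the neuroectoderm list 5 of 14 genes reached the filter and 3 were higher and held. These 3 reached the filter only through the 2i+LIF libraries, so the filter partly fixed their share. Among all genes tested 9.64% were higher and 3.17% were higher and held. Ncam1, a neural adhesion molecule, was at 4.95 and 3.296 RPKM against 0.108 to 0.327, Sox1 at 8.41 and 1.78 against 0.203 to 0.311 and Otx1 at 1.33 and 1.22 against 0.134 to 0.334. Against the wt serum+LIF library alone, 1 of the 5 was higher. Gsc, which also reached the filter only through 2i+LIF, was the sole mesoderm gene that was higher. T, Mixl1, Mesp1 and Eomes did not reach the filter or did not pass. Of the 2-cell-like list 1 gene was tested, Eif1a, which did not pass.

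The metabolic lists differed in how many genes passed. None of 24 cholesterol synthesis and uptake genes held, and 3 passed, all higher, against 9.64% of all genes tested. Among the 3 were Acat2 and Cyp51, the lanosterol demethylase. Cyp51 was at 34.04 and 38.4 RPKM in 2i+LIF, 27.9 in wt serum+LIF cells and 20.7, 21.5 and 19.9 in the FH-Mtgr1 lines. Srebf2, a transcription factor of sterol synthesis, was at 124 and 116 RPKM against 77.9 to 101, 0.38 (limma adjusted p = 0.169). Hmgcs1 was listed at 0 in all 6 libraries. Of 6 cholesterol efflux genes Abca1, a transporter, was higher, at 4.595 and 1.96 RPKM against 0.707 to 1.4, without holding. Among all genes tested 9.64% were higher. Scd2, a fatty acid desaturase, was higher and held, at 141 and 147 RPKM against 60.6 to 74.9. Among 16 genes of fatty acid synthesis 5 were higher and 1 lower, against 9.64% and 9.71% of all genes tested. In the oxidative stress list 3 of 15 tested genes were higher and 3 lower, against 9.64% and 9.71% of all genes tested. Gpx1 (glutathione peroxidase 1), Nqo1 and Gsr were higher and Gclm was lower, and all held. Hmox1 and Osgin1 were lower without holding. Gpx1 was at 559 and 402 RPKM against 68.5 to 124, a log2 fold change of 2.42 (SE 0.26, limma adjusted p = 0.000986), and Gclm, a subunit of the enzyme that starts glutathione synthesis, at 32.3 and 34.1 against 62.2 to 87.5. Of 32 nuclear-encoded respiratory chain genes none held and 2 were higher, Ndufv1 and Sdhb, against 9.64% of all genes tested. Of 29 glycolysis and hypoxia genes 3 were higher and 2 lower, close to the share among all genes tested (19.3%). Hk1 (hexokinase 1) was at 68.1 and 108 RPKM against 18.9 to 26.7 and Vegfa at 33.1 and 42.7 against 11.1 to 16.1.

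Thrsp, a lipogenic gene induced by thyroid hormone, was at 5.69 and 11.5 RPKM in 2i+LIF against 0.5902 to 0.789. It reached the filter only through 2i+LIF and was the sole member of the glucocorticoid and thyroid hormone list that held. Of 10 tested in that list, 2 were higher and 1 lower, against 9.64% and 9.71% of all genes tested. Rarg, a retinoic acid receptor, was lower at 18.6 and 11.2 RPKM against 40.5 to 51.99. It was the 1 gene of 6 in its list that passed, close to the share among all genes tested (19.3%). Ddit4, an mTORC1 inhibitor induced by amino acid stress and hypoxia, was at 71.9 and 115 RPKM against 237 to 308. In the amino acid list 1 of 19 tested genes was higher and 2 were lower, against 9.64% and 9.71% of all genes tested, and 16 did not pass. Its median log2 fold change was 0.19 in library 1 and -0.90 in library 2. Of its genes 3 had the 2i+LIF libraries on opposite sides of the serum+LIF range, against 7.03% of all genes tested.

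Ccnd2 (cyclin D2) was at 0.0975 and 0.0541 RPKM in 2i+LIF against 1.51 to 2.33 and was the 1 gene of the G1/S cyclin and proliferation list that held. Of that list 2 were higher and 4 lower among 20 tested, against 9.64% and 9.71% of all genes tested. In the p53 and cell cycle inhibitor list 6 of 19 genes were lower and 1 higher, against 9.71% and 9.64% of all genes tested, and Cdkn1c, Btg2 and Perp held. Btg2, an antiproliferative p53 target, was at 15.7 and 18.5 RPKM against 38.4 to 74.5. The Myc and ribosome biogenesis list had 1 gene higher and 3 lower of 20, against 9.64% and 9.71% of all genes tested, and none held. Among 11 subunits and partners of Polycomb repressive complex 2 the histone-binding protein Rbbp7 alone passed, against 19.3% of all genes tested. It was lower, -0.83 (limma adjusted p = 0.0231). No gene held, and the catalytic subunit Ezh2 was at 58.9 and 84.4 RPKM against 86.5 to 92.3.

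**Figure D5:**
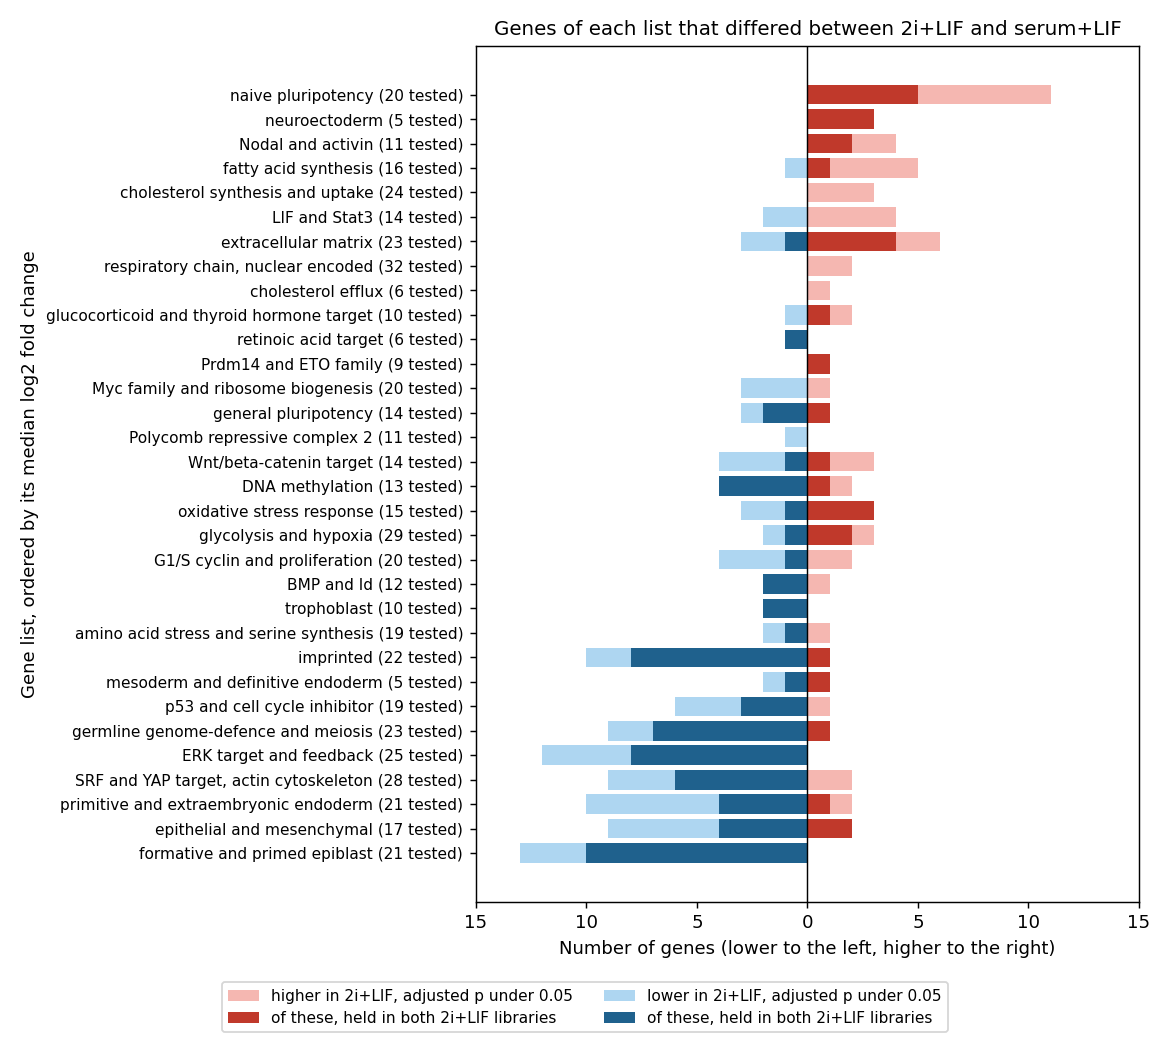
Number of genes of each list that were lower (left) or higher (right) in 2i+LIF by limma, with those that held in both 2i+LIF libraries in the darker shade. The formative and primed epiblast list has the most genes lower (13 of 21) and the naive pluripotency list the most higher (11 of 20).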

How the data were processed

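Reads were mapped by the authors with Tophat (mm9) and assigned to RefSeq models with HTSeq, and RPKM values of 24015 genes were deposited with each gene's length, 1 library per file. RPKM multiplied by length gave whole reads for 100% of values (tolerance 0.01), summing to 10668572 to 21218414 per library, a number that limits precision by counting error only. Values were taken as log2(RPKM + 0.5) and genes reaching 1 RPKM in at least 2 of the 6 libraries were fitted with limma 3.58.1 in R 4.3.3 (lmFit, eBayes with trend, Benjamini-Hochberg adjustment, threshold 0.05), 2 libraries against 4. The same fit was run with each 2i+LIF library alone. The study's methods describe biological replicates without saying what separated them, so p-values measure the spread between these libraries. No pair agreed within sampling noise (chi-square per degree of freedom at least 10.7).

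The compared libraries, the gene lists and the rule for named genes were chosen with earlier results of these data known. Genes named are, first, the 10 per direction with the largest log2 fold change that held in both 2i+LIF libraries. These also had a mean of at least 5 RPKM and both 2i+LIF libraries outside the serum+LIF range. Next are up to 4 held members per direction of each list, with its defining members. Last are the 5 per direction that differed most between the 2i+LIF libraries. Others, such as Cdh1, Meg3 and Gata4, were added after their values were seen, and a few genes that the rule names are not reported here. Transcript GC content was found for 11318 genes (90%). The code was checked on simulated data. Alternatives were pseudocounts of 0.1 and 1, other filters, median-of-ratios scaling, all 15 libraries, other references, voom on whole reads, library weights, GC adjustment and leaving out each library, and, chosen after the data were seen, an adjustment for gene length. Figures were drawn with Python 3.11.15. ChIP-seq libraries of the series were not used here.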

Additional observations from a re-analysis of the deposited data

Results flagged for a closer look

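For each of the 109 named genes that were tested, the 4 serum+LIF libraries were searched for 1 that stood apart from the others on the log2(RPKM + 0.5) scale, by the gap to its nearest neighbour as a share of the whole range (Dixon's ratio at the 95% level, which chance passes in about 1 of 20 groups). It was found for 16 genes. The wt serum+LIF library stood apart in 11 of them: Prmt8 (ratio 0.82905), Car4 (0.954), Tmem54 (0.830), Nr5a2 (0.861), Pou3f1 (0.896), Zeb1 (0.843), Cdkn1c (0.896), Klf4 (0.964), Zfp42 (0.853), Tet2 (0.915) and Stat3 (0.896). Line C3 stood apart in Dusp6 (0.865), Gsr (0.902), Otx1 (0.886) and Tbx3 (0.850), and line A3 in Timp1 (0.832). The wt library differs from the other 3 also in genotype. In Klf4 and Zfp42 it lay towards 2i+LIF, at 28 and 184 RPKM against 7.24 to 7.61 and 84.5 to 94.7 in the FH-Mtgr1 lines, and in Prmt8 and Car4 as well, at 1.59 and 20.8 RPKM against 0.117 to 0.2604 and 56.7 to 59.6. In Pou3f1 it lay away from 2i+LIF, at 33.3 against 20.2 to 21.3.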

How the results depend on the processing

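The count of 2433 genes that differed (1212 higher, 1221 lower) was 1334 (741 and 593) with a mean of at least 5 RPKM, where fewer genes were tested, 4797 (2397 and 2400) with all 15 libraries in the fit and 861 (340 and 521) against the wt serum+LIF library alone. The 912 genes that held (399 and 513) were 488 (230 and 258) without a filter, where more genes were tested, and 460 (221 and 239) with a mean of at least 5 RPKM. Leaving out 1 library at a time gave 1335 to 2660 genes in the whole comparison (520 to 1491 higher, 682 to 1226 lower) and 328 to 1805 that held (120 to 906 and 208 to 899). The other counts stayed within 1.5 times the value reported, and the cause of these shifts was not tested. Of the 91 named genes past the threshold, 66 passed against the wt library alone, 82 without 2i+LIF library 1, 86 without line A3, 86 without line C1, and 87 without line C3, without 2i+LIF library 2 or without a filter, and with GC adjustment 85 of 87 tested did. Of the 80 that held, 64 passed against the wt library alone, and all those tested passed in the other fits, where leaving out either 2i+LIF library is part of the definition. No named gene past the threshold changed direction in any fit. No paired analysis was possible because the labels do not pair the 2i+LIF libraries with serum+LIF libraries. With 2 libraries in 2i+LIF and 1 wt library in serum+LIF, small differences could not be resolved.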

Other observations

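The X chromosome had the largest share of genes that were lower in 2i+LIF and held, a count made after the values were seen and given with no test. Of 399 X-linked genes tested, 38 (9.52%) were lower and held in both 2i+LIF libraries and 6 (1.5%) were higher and held, against 4.16% and 3.19% of the 11670 genes with 1 position in NCBIM37. No other chromosome had more than 5.61% lower and held. The median log2 fold change was -0.19 for X-linked and -0.01 for autosomal genes, and against the wt serum+LIF library alone 40 X-linked genes (10%) were lower and 7 (1.75%) higher, with 3.91% and 2.78% of autosomal genes. Rlim, a ubiquitin ligase that activates Xist, was at 13.3 and 19.8 RPKM in 2i+LIF, 82.1 in wt serum+LIF cells and 79.1, 89.02 and 83.3 in the FH-Mtgr1 lines, a log2 fold change of -2.33 (SE 0.19, limma adjusted p = 0.0004). Klhl13, an adaptor of a ubiquitin ligase, was at 17.1 and 10.5 RPKM against 53.9 to 91.8, Porcn, which acylates Wnt ligands, at 1.24 and 1.36 against 5.27 to 9.74, Pim2, a survival kinase, at 7.95 and 8.19 against 18.1 to 37.2, and Amot, a scaffold of the Hippo pathway, at 0.263 and 0.0522 against 1.52 to 2.56. For each of these both 2i+LIF libraries were below all serum+LIF libraries, which passing the threshold nearly implies. Of the 2433 genes past the threshold, 2432 had both 2i+LIF libraries on the same side of the serum+LIF range. Xist was at 1.104 and 1.16 RPKM in 2i+LIF and 1.01 to 1.57 in serum+LIF, and its antisense partner Tsix at 1.68 and 1.596 against 0.839 to 0.996, where reads of the pair cannot be told apart without strand.

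Y-linked genes were near 0 in the library of line C1. Ddx3y was at 5.35 and 4.12 RPKM in 2i+LIF, 5.77 in wt serum+LIF cells and 8.47, 0.0406 and 11.1 in the FH-Mtgr1 lines A3, C1 and C3, and Eif2s3y at 5.199 and 3.36, 5.74 and 17.5, 0.08002 and 17.1. Without line C1, 1335 genes differed between the media and 336 held.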
